A study of Mus musculus with 6 samples.

Results

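The genes described here make, degrade or read the cyclic nucleotides cAMP and cGMP, in mouse neural stem cells divided by whether a Spot14 reporter made them fluoresce green (GFP). Members were picked by a pattern of gene symbols: adenylyl cyclases (Adcy), guanylyl cyclases (Gucy, Npr1 and Npr2) with the receptor Npr3, phosphodiesterases and other genes named Pde, subunits of the cAMP-dependent protein kinase PKA (Prkac, Prkar), the cGMP-dependent kinases Prkg1 and Prkg2, and the exchange factors named Rapgef. This gave 57 of the 18193 genes on the array, read by 143 probe sets. Total RNA had been hybridised, from cells positive for Spot14 GFP on 3 arrays and from GFP negative cells on 3 more, to Affymetrix expression arrays, and the labels number the replicates within each group. The Thrsp gene, known from fat-producing tissues, encodes Spot14, and the cells of both groups are labelled as mouse neural stem cells. The labels give no strain, age, culture or reporter construct, and no treatment. They also do not say whether replicates came from separate animals or cultures, so p-values measure the spread between these samples.

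Cyclic AMP and cyclic GMP are small messengers made inside cells from ATP and GTP. Membrane adenylyl cyclases make cAMP under the control of G proteins, whereas cGMP comes from a soluble cyclase that nitric oxide activates and from cyclases that are themselves receptors for natriuretic peptides. Phosphodiesterases break down one or both messengers, and what remains acts on PKA, on the cGMP-dependent kinases and on the cAMP-activated exchange factor Rapgef3. In neural progenitors and astrocytes cAMP signalling through the transcription factor CREB is known for its part in survival, differentiation and plasticity.

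Of these genes 3 passed the test. Gucy1a1, a subunit gene of the nitric oxide-activated guanylyl cyclase, rose to a 4.99-fold higher signal in GFP positive cells, the cAMP phosphodiesterase Pde4d rose 2.70-fold, and Pde3b, a phosphodiesterase of both messengers, was 2.08-fold lower. Of the 57 members 37 were tested, since a gene needed a signal of log2 4 or more on at least 3 arrays, counted over both groups, and the rest lay near background. With limma and an adjusted p under 0.05 over all 10531 genes tested, 2 members rose and 1 fell, beside 2.35% and 2.11% of all tested genes (4.46% in either direction). The arrays of one group lay wholly above those of the other for 15 members, 11 with the GFP positive arrays on top and 4 with the negatives, beside 13.8% and 11.5% of all tested genes (25.3% together). By the unadjusted limma p, 10 members were higher and 5 lower at 0.05, beside 9.92% and 8.28% of all tested genes (18.2% together). Sample RNA was bulk RNA, so a change in the number of cells that hold a transcript and a change in the amount per cell cannot be told apart.

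**Figure D1:**
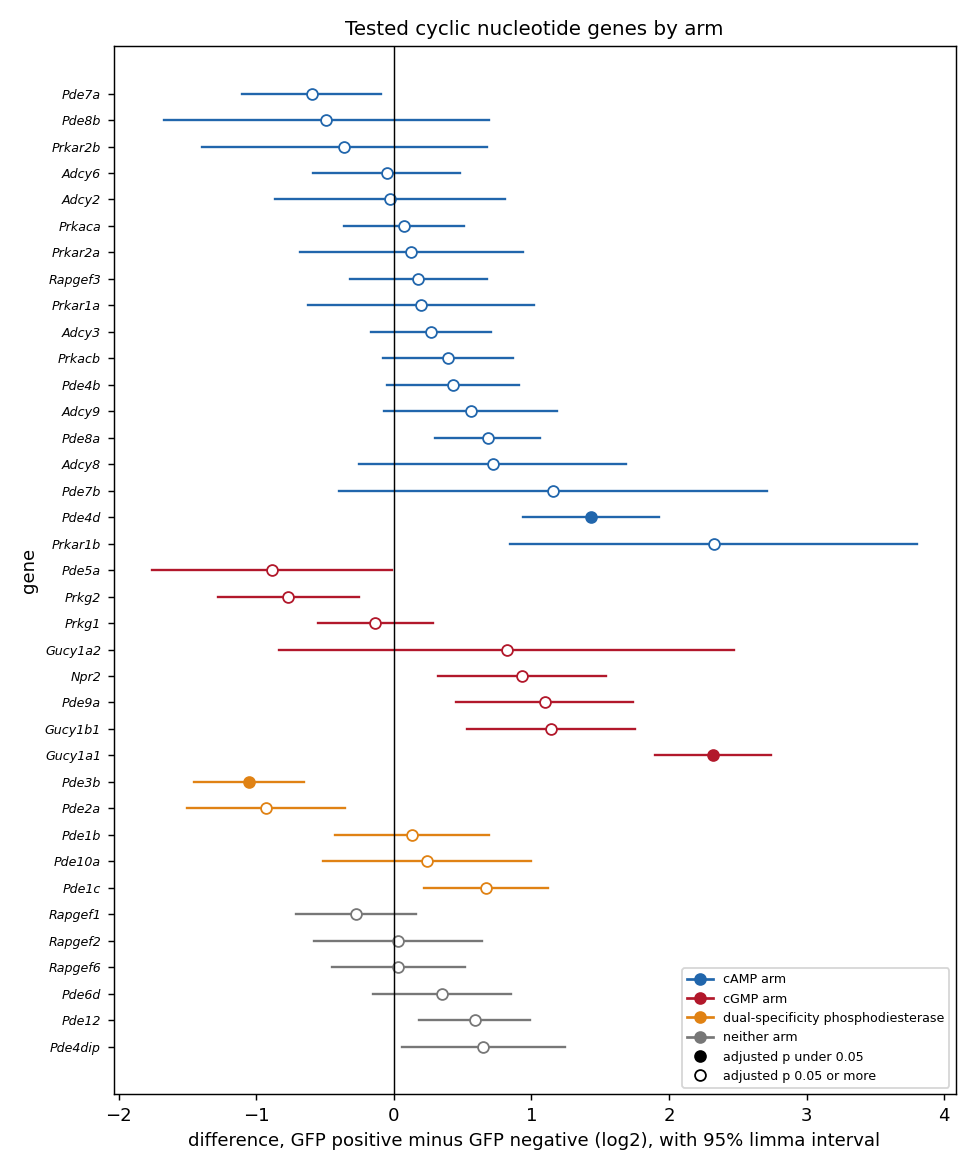
Difference between GFP positive and GFP negative cells (horizontal axis, log2) for each of the 37 tested genes, with its 95% limma interval, coloured by the messenger it serves. Filled points mark the 3 genes with an adjusted p under 0.05: Gucy1a1 at 2.32, Pde4d at 1.43 and Pde3b at −1.06.

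Members were also set apart by messenger, and the difference between the arms was not tested. The 8 tested genes of the cGMP arm (cyclases, cGMP phosphodiesterases and cGMP-dependent kinases) differed by a median of 0.88 (log2), with 5 positive and 3 negative, and 1 rose. The 18 tested genes of the cAMP arm (adenylyl cyclases, cAMP phosphodiesterases, PKA and Rapgef3) had a median of 0.23, with 13 positive and 5 negative, and 1 rose. The 5 tested phosphodiesterases that break down both messengers were counted in neither arm. Their median was 0.13, with 3 positive and 2 negative, and 1 fell. The gap between the arm medians rests on this grouping, and medians with these genes included were not computed. Of the 8 cGMP arm genes 3 encode subunits of soluble guanylyl cyclase. Over all tested genes the median was 0.0049. Without GFP negative replicate 3 the medians of the cGMP and cAMP arms were 0.47 and 0.33, a narrower gap. With no filter, where the genes near background enter, they were 0.034 and 0.10, so the order of the arms depends on the filter.

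One array stood apart, GFP negative replicate 3, with correlations of 0.952 to 0.954 to the other GFP negative arrays, which correlated at 0.982 with each other (across genes, which are not independent). For Gapdh the 3′ probes exceeded the 5′ probes by 2.33 (log2) on GFP negative replicate 2 and by 1.14 to 1.65 on the other arrays. Neural stem cell markers were present, with 9 of 10 tested and Prom1 under the filter. Mitosis markers moved with the groups: 17 of 19 tested fell in GFP positive cells, and their summed linear signal was 2600 to 3896 there and 8376 to 12196 in GFP negative cells. Of 14 tested astrocyte markers 6 rose, with sums of 99587 to 111340 against 54207 to 69578. The part of any of these marker sets in the results below was not tested. Of 10 pericyte and smooth muscle markers, cells known for soluble guanylyl cyclase, only Acta2 and Cspg4 were tested. Acta2 fell (−1.29 on the log2 scale, limma adjusted p = 0.0413), Cspg4, also a marker of oligodendrocyte progenitors, differed by −1.31 (limma adjusted p = 0.134), and their summed signal ran from 97.3 to 142 across the positives and from 190 to 527 across the negatives. Pdgfrb, Rgs5, Kcnj8 and Abcc9 lay under the filter in both groups. Tagln was not tested either, but it reached log2 4 on GFP positive replicate 2 (4.18) and GFP negative replicate 3 (4.34).

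Soluble guanylyl cyclase is a heterodimer of an alpha and a beta subunit, and its alpha gene Gucy1a1 had the smallest p of all members. Its signal was 8.95, 8.78 and 8.93 in the GFP positive group against 6.57, 6.77 and 6.38 among the GFP negative arrays (log2). All 3 GFP positive arrays lay more than 2 log2 units above the highest GFP negative one. The difference was 2.32 (SE 0.18, 95% interval 1.90 to 2.74, limma adjusted p = 0.00696). It passed in 4 of the 6 fits that leave out 1 array; without GFP positive replicate 1 it was 2.29 (limma adjusted p = 0.0625) and without GFP positive replicate 3 it was 2.30 (0.0561). In those fits few genes passed anywhere on the array, 2 and 1 of 10531. The other 2 probe sets of Gucy1a1 lay near background, at 2.83 and 2.42 and at 2.27 and 2.22 in GFP positive and GFP negative cells.

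Gucy1b1, the beta subunit gene, differed in the same direction and narrowly missed the threshold. It read 9.14, 9.05 and 9.05 in the GFP positive group against 8.49, 7.74 and 7.58 in the negatives. The groups did not overlap, and the spread was 0.05 in GFP positive and 0.49 in GFP negative cells (SD, n = 3 each, log2). The difference was 1.14 (SE 0.26, interval 0.53 to 1.75, 2.21-fold, limma adjusted p = 0.057), with an adjusted p of 0.013 to 0.197 over 15 alternatives, of which 5 called it. It passed with arrays set to a common median (1.21, limma adjusted p = 0.0441), with trend and robust eBayes (0.0484) and with array weights (1.03, 0.013). The array weights gave GFP positive replicate 2 a weight of 8.35, against 0.833 and 1.22 for replicates 1 and 3. Gucy1b1 also passed when either of 2 GFP negative arrays was left out, replicate 1 (1.42, 0.0237) or replicate 3 (0.96, 0.049). The alternative alpha subunit Gucy1a2 read 5.64, 6.53 and 6.86 against 6.11, 6.64 and 3.83. Its groups overlapped, with GFP negative replicate 3 far below the other arrays, and it did not pass (0.82, SE 0.71, limma adjusted p = 0.63).

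Gucy1a1 and Gucy1b1 are neighbours on chromosome 3, with 0 annotated genes between them in the RefSeq annotation of GRCm38.p6. The sequences upstream of the start sites are shown because both subunit genes differed in the same direction and because cAMP acts on promoters through the CRE, the site of CREB. RefSeq promoter windows (GRCm38.p6) were found for 46 of the 57 members, and the 250 bases before each start were searched on both strands for the full CRE (TGACGTCA), for its core (TGACG), for the CCAAT box and for the GC box (GGGCGG). The CRE core overlaps the full CRE by its letters. The TATA box (TATAAA) was searched in the same way and is not marked. Capitals mark the CRE core, CCAAT and the GC box on either strand in Gucy1b1 (chr3:82074712-82074961, minus strand), Pde4d (chr13:108653927-108654176, plus strand) and a 30-base stretch before the outermost Gucy1a1 start of the table (chr3:82145871-82145900, minus strand), and the full CRE in a 30-base stretch of Prkar1a (chr11:109650889-109650918, plus strand).
Gucy1b1: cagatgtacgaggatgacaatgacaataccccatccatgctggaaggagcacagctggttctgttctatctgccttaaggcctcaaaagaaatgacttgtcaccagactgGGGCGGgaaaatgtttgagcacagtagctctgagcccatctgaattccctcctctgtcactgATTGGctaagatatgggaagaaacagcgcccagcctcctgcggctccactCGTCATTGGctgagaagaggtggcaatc
Gucy1a1: aggatggcgactGGGCGGgagcagactcag
Pde4d: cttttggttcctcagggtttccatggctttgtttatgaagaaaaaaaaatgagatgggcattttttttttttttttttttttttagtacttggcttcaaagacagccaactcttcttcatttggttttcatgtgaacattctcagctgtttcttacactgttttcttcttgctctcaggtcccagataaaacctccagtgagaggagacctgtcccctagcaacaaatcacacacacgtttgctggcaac
Prkar1a: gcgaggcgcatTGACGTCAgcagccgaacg
Gucy1b1 held a CRE core that begins 28 bases before the start and runs into a CCAAT box at 24 bases, with another CCAAT box at 78 and a GC box at 140 bases. The windows of Gucy1a1 held no CRE core and 1 GC box, 238 bases before its outermost start. For Pde4d only the window shown was searched, and it held none of these letters, with 38.8% G and C. Any other start of Pde4d was not searched. The 46 members have 89 windows, some of them overlapping, of 32851 in all. The full CRE was in 1 of the 89, that of Prkar1a, and in 1.55% of all windows. The core was in 21.4% of the members' windows and 17.8% of all windows, CCAAT in 30.3% and 33.9%, and the GC box in 41.6% and 32.7%. The TATA box was in 4.49% of the members' windows and 12.4% of all windows. These shares count letters and say nothing on binding.

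Npr2, the receptor cyclase for C-type natriuretic peptide, was the only receptor guanylyl cyclase above the filter. It read 8.99, 8.92 and 8.94 in the GFP positive group against 7.48, 8.14 and 8.44 in the negatives. The GFP positive arrays were close to one another and all above the GFP negative ones. The difference of 0.93 (SE 0.26, 1.91-fold) did not pass (limma adjusted p = 0.105). Among the fits that leave out 1 array, it passed only without GFP negative replicate 3 (1.14, 0.0255), where 11.8% of all tested genes passed. In the others the limma adjusted p reached 0.308. Npr1, the receptor for atrial natriuretic peptide, the clearance receptor Npr3, and Gucy2c, Gucy2e and Gucy2g, cyclases known from gut and sensory cells, lay under the filter on all 6 arrays.

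Among the phosphodiesterases that act on cGMP, Pde9a and Pde5a differed in opposite directions and neither passed. Pde9a, a high-affinity cGMP phosphodiesterase of brain, read 7.92, 7.77 and 7.72 in GFP positive and 6.66, 6.22 and 7.26 in GFP negative cells. The groups did not overlap (1.09, SE 0.27, 2.14-fold, limma adjusted p = 0.0752). Among the fits that leave out 1 array, Pde9a passed only without GFP negative replicate 3 (1.37, 0.0105). In the others its limma adjusted p reached 0.24. Pde5a, the target of sildenafil, read 3.28, 4.18 and 3.30 against 4.15, 5.17 and 4.10. These values lie at the edge of the filter and overlap (−0.89, SE 0.37, limma adjusted p = 0.265). The subunit genes of the photoreceptor enzyme, Pde6a, Pde6b, Pde6c, Pde6g and Pde6h, lay under the filter on all arrays.

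Both cGMP-dependent kinases were negative, and neither passed. Prkg2, the membrane-bound kinase, read 7.40, 7.71 and 7.06 in GFP positive and 8.22, 8.29 and 7.96 in GFP negative cells. All GFP positive arrays lay below all GFP negative ones, and the difference of −0.77 (SE 0.22) did not pass (limma adjusted p = 0.11). Among the fits that leave out 1 array, it passed only without GFP negative replicate 3 (−0.86, 0.0496). In the others the limma adjusted p reached 0.385. Another probe set of Prkg2 gave −0.31. Prkg1, the soluble kinase of smooth muscle and neurons, differed by −0.13 (interval −0.55 to 0.28, limma adjusted p = 0.774) with overlapping groups, and its other probe set gave 0.31.

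**Figure D2:**
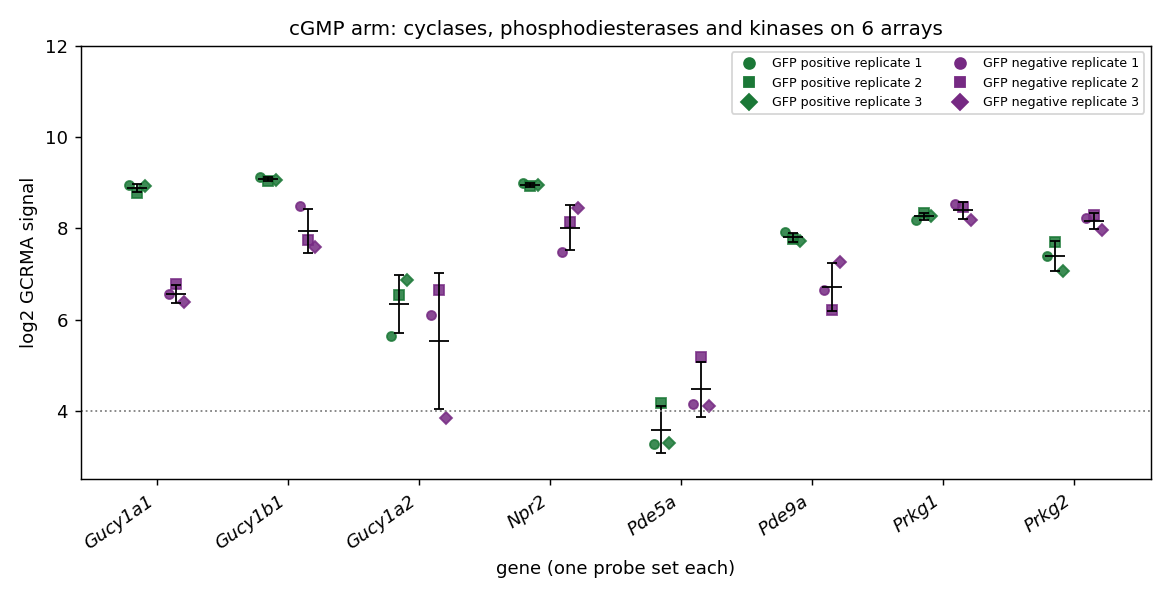
Signal (vertical axis, log2 GCRMA) of the 8 tested cGMP arm genes on the 6 arrays, with bars for the mean and SD of each group and a dotted line at the filter of log2 4. Gucy1a1, Gucy1b1, Npr2 and Pde9a lie higher on all 3 GFP positive arrays, Prkg2 lies lower, and Gucy1a2, Pde5a and Prkg1 overlap.

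Adenylyl cyclases did not pass. Of 9 membrane cyclases 5 were tested (Adcy2, Adcy3, Adcy6, Adcy8 and Adcy9), and their differences ran from −0.05 to 0.72 with a median of 0.27. Adcy6, a cyclase inhibited by calcium, read 8.91, 8.82 and 8.81 against 8.52, 8.87 and 9.30 (−0.05, SE 0.23, limma adjusted p = 0.942). The GFP positive values fall inside the range of the GFP negative ones, and the sign turned without GFP negative replicate 3 (0.15) and with arrays set to a common median (0.01). Adcy8, a cyclase activated by calcium and calmodulin, read 5.01, 4.65 and 3.98 against 3.25, 3.59 and 4.65. Only 3 of these values reach the filter, and the difference of 0.72 (SE 0.41) did not pass (limma adjusted p = 0.435). Adcy3, the cyclase of olfactory neurons and primary cilia, differed by 0.27 (limma adjusted p = 0.525) and Adcy2 by −0.03 (0.98).

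Adcy9, a widely expressed cyclase, read 8.05, 7.95 and 8.11 in GFP positive and 7.33, 7.07 and 8.04 in GFP negative cells. GFP negative replicate 3 lay inside the GFP positive range and the other GFP negative arrays below it. The difference was 0.56 (SE 0.27, limma adjusted p = 0.338), and 0.84 without that array (0.0245). It passed in no other fit that leaves out 1 array. All 4 probe sets of Adcy9 were above the filter and higher in GFP positive cells, by 0.52 to 1.06. The probe set at 1.06 passed in a fit of all probe sets (limma adjusted p = 0.047). The probe set at 0.52 lay at the edge of the filter, at 4.23, 4.25 and 4.04 against 3.41, 3.33 and 4.22.

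Pde4d rose among the cAMP phosphodiesterases. The Pde4 enzymes are specific for cAMP and are the targets of rolipram. Pde4d read 7.71, 7.33 and 7.53 in the GFP positive group against 6.02, 6.40 and 5.85 in the negatives. The lowest GFP positive array was almost 1 log2 unit above the highest GFP negative one. The difference was 1.43 (SE 0.21, interval 0.94 to 1.93, limma adjusted p = 0.0163). Leaving out any GFP positive array ended the call (limma adjusted p = 0.0932, 0.0582 and 0.0891 for replicates 1, 2 and 3), and it passed without any 1 of the GFP negative arrays. Its other probe set lay near background (2.49 and 2.44).

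Pde4b, a cAMP phosphodiesterase of brain and immune cells, did not pass at the probe set with the highest signal, while its other probe sets gave larger differences. At the former it read 13.37, 13.43 and 13.59 against 13.25, 13.15 and 12.70 (0.43, SE 0.20, limma adjusted p = 0.333). The groups did not overlap there. The other 2 probe sets above the filter gave 1.12 and 1.03, and in a fit of all probe sets their limma adjusted p was 0.0377 and 0.0746. Pde4a lay near background on all arrays.

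The Pde7 and Pde8 enzymes, which are specific for cAMP and insensitive to rolipram, held 0 called genes of 4 tested. Pde8a read 5.78, 5.75 and 5.79 against 5.23, 5.03 and 5.02, without overlap (0.68, SE 0.16, 1.60-fold, limma adjusted p = 0.0663). Among the fits that leave out 1 array, Pde8a passed only without GFP negative replicate 3 (0.64, 0.0406). Pde8b differed by −0.49 (SE 0.50, limma adjusted p = 0.692), with GFP negative arrays spread from 5.49 to 7.64. Pde7a read 9.42, 9.36 and 9.25 against 9.72, 10.33 and 9.77, lower in GFP positive cells without overlap (−0.60, SE 0.22, limma adjusted p = 0.193). All 5 probe sets of Pde7a above the filter were negative, from −0.74 to −0.28. Pde7b read 5.30, 5.22 and 5.26 against 2.79, 3.76 and 5.76. GFP negative replicate 3 was the highest array of all, and without it the difference was 1.98 (limma adjusted p = 0.0121), against 1.16 (0.432) with all arrays. Without that array Pde7b reached log2 4 on GFP positive arrays only. The filter then fixes its direction, so this pass adds no support.

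Of 5 tested phosphodiesterases that hydrolyse both messengers 1 fell, Pde3b, and 0 rose. Pde3b is the cGMP-inhibited enzyme through which insulin restrains fat breakdown in adipocytes. It read 7.02, 7.32 and 7.12 in GFP positive and 8.18, 8.16 and 8.29 in GFP negative cells. The arrays of each group lay close together, with an SD of 0.15 and 0.07 (n = 3 each), and did not overlap. The difference was −1.06 (SE 0.17, interval −1.45 to −0.66, limma adjusted p = 0.0201). It passed only without GFP negative replicate 1 or 3 among the fits that leave out 1 array, and its adjusted p was 0.067 to 0.117 in the other 4. Pde3b has 1 probe set on the array.

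Pde2a, an enzyme that cGMP activates to break down cAMP, read 8.39, 9.08 and 8.88 against 9.48, 10.01 and 9.65. All GFP positive arrays were lower (−0.93, SE 0.24, limma adjusted p = 0.0869), and another probe set gave −0.87. Pde1c, a calcium- and calmodulin-activated enzyme, read 10.94, 10.60 and 10.62 against 9.96, 10.27 and 9.93. It was higher on all GFP positive arrays (0.67, SE 0.19, limma adjusted p = 0.112), and it passed in 0 of 15 alternative fits. Pde1b, its relative, differed by 0.13 (limma adjusted p = 0.84). Pde10a, known from striatal neurons, gave 0.24 at one probe set (limma adjusted p = 0.776) and −0.87 at another, where the groups did not overlap and the limma adjusted p over all probe sets was 0.0865. Its direction therefore depends on the probe set. Pde1a, Pde3a and Pde11a lay under the filter.

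**Figure D3:**
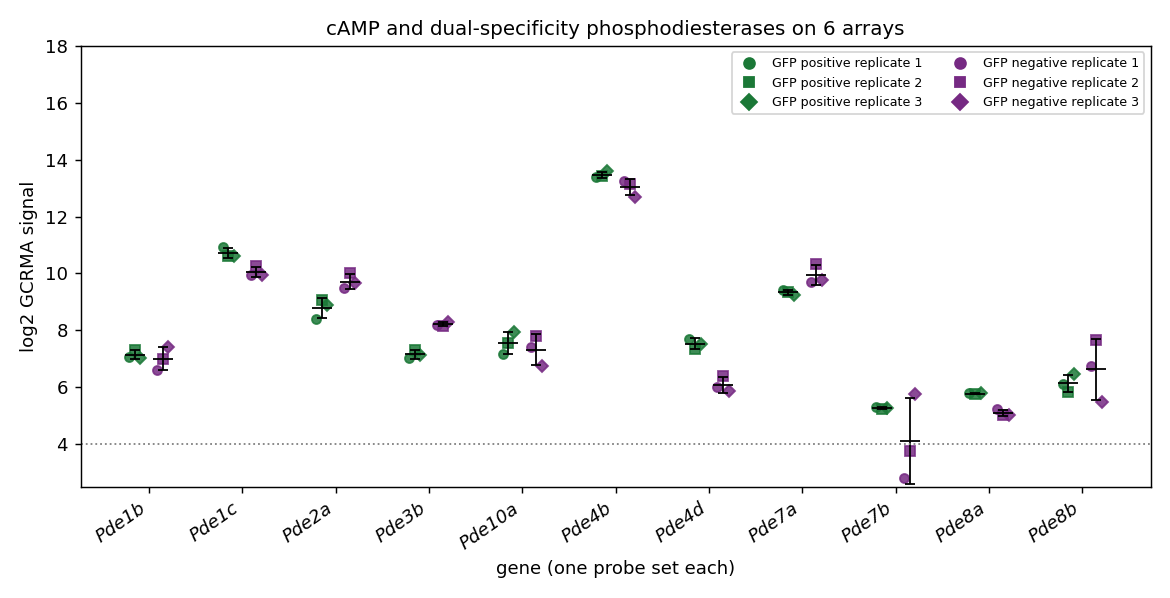
Signal (vertical axis, log2 GCRMA) of the 11 tested cAMP-specific and dual-specificity phosphodiesterases on the 6 arrays, with bars for the mean and SD of each group and a dotted line at log2 4. Pde4d, Pde8a, Pde1c and, narrowly, Pde4b separate upward and Pde3b, Pde2a and Pde7a downward in GFP positive cells, while Pde7b is spread from 2.79 to 5.76 among the GFP negative arrays.

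The catalytic subunits of PKA differed little. Prkaca read 11.55, 11.57 and 11.47 against 11.63, 11.19 and 11.56 (0.07, interval −0.36 to 0.51, limma adjusted p = 0.896). Prkacb read 11.05, 11.29 and 11.20 against 11.08, 10.52 and 10.76 (0.40, interval −0.08 to 0.87, limma adjusted p = 0.368). Both overlapped, and the intervals hold changes of up to 0.51 and 0.87 on the log2 scale. Rapgef3, the cAMP-activated exchange factor for the GTPase Rap, read 9.09, 9.39 and 9.36 against 8.81, 9.10 and 9.40 (0.18, interval −0.32 to 0.67, limma adjusted p = 0.748).

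Of the regulatory subunits, which hold PKA inactive until cAMP binds, Prkar1b differed most. It read 7.24, 6.67 and 6.49 in the GFP positive group against 3.18, 4.31 and 5.94 in the negatives. The groups did not overlap, and the GFP negative arrays spread from background to just below the GFP positive ones. The difference was 2.32 (SE 0.63, interval 0.84 to 3.80) and did not pass (limma adjusted p = 0.0965); the mean of the GFP negative arrays, 4.48, is near background, so its size depends on the background correction. Without GFP negative replicate 3 it was 3.05 and passed (0.00803). In the other fits that leave out 1 array it did not pass (limma adjusted p at most 0.289). All 4 probe sets above the filter were higher, by 1.26 to 2.32. In a fit of all probe sets 2 of them passed, both with a cross-hybridising suffix (limma adjusted p = 0.0398 and 0.0408). These 2 reached log2 4 on GFP positive arrays only, with GFP negative values of at most 3.45. Passing the filter through the group where they are high fixes their direction, so they add no support.

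The other regulatory subunits overlapped between the groups. Prkar1a, the widely expressed type I subunit, differed by 0.20 (limma adjusted p = 0.837), Prkar2a by 0.13 (0.903) and Prkar2b, the type II subunit of brain and fat, by −0.36 (0.752). GFP negative replicate 3 was the lowest of the 6 arrays for all 3 genes, at 10.42, 10.64 and 7.33. Without it the sign of Prkar2a turned (−0.25).

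**Figure D4:**
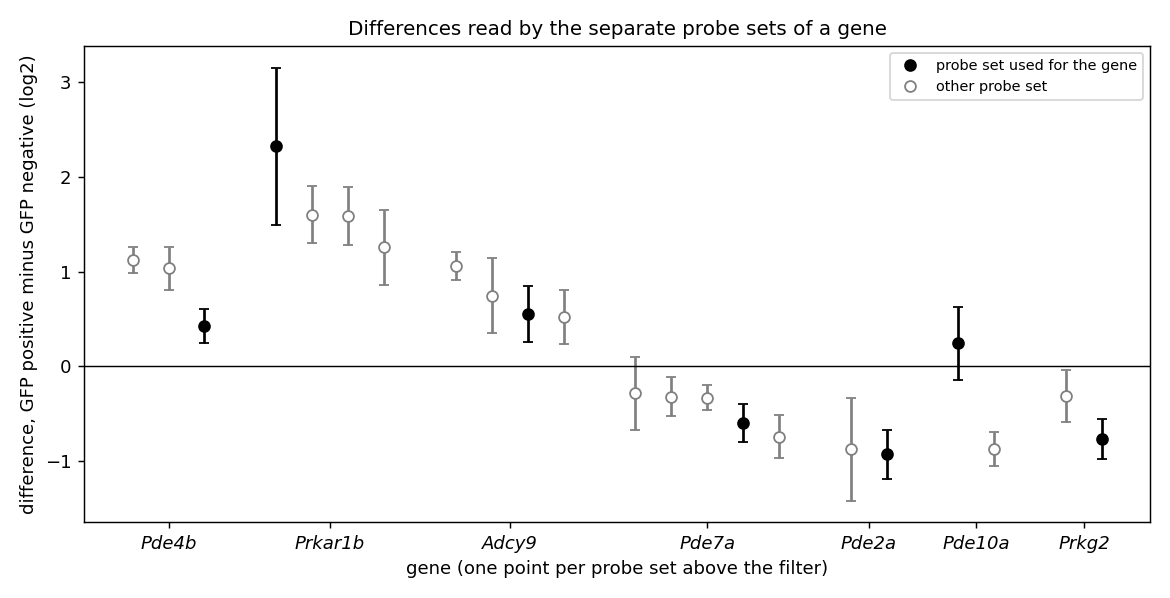
Difference between GFP positive and GFP negative cells (vertical axis, log2) at each probe set above the filter for 7 genes with several such probe sets, with bars of 1 standard error from the arrays of each group. All probe sets of Pde4b, Prkar1b and Adcy9 lie above 0 and all of Pde7a, Pde2a and Prkg2 below, while those of Pde10a lie on opposite sides, at 0.24 and −0.87. Prkar1b includes probe sets that reached log2 4 on GFP positive arrays only, so their direction was fixed by the filter.

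Of the 37 tested members, 19 had several probe sets above the filter, and for 4 of them (Pde10a, Pde4dip, Prkg1 and Rapgef6) these differed in sign. Which genes count as called depends on this choice: taking for each gene the probe set of smallest p in a fit of all probe sets, 5 members were higher (Adcy9, Gucy1a1, Pde4b, Pde4d and Prkar1b) and 1 lower (Pde3b), beside 2.1% and 1.65% of all genes read that way. The adjustment then runs over all probe sets. Prkar1b is called there through a probe set that reached log2 4 on GFP positive arrays only.

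Of 7 members that serve neither messenger directly, 6 were tested and 0 passed, with 2 higher at an unadjusted p under 0.05 in limma. Pde12, which trims poly(A) tails of mitochondrial RNA, read 10.88, 10.70 and 10.94 against 10.38, 10.15 and 10.23, without overlap (0.59, SE 0.17, limma adjusted p = 0.116). Pde4dip, the centrosome and Golgi protein myomegalin, read 11.62, 11.42 and 11.32 against 11.06, 11.06 and 10.29 (0.65, SE 0.25, limma adjusted p = 0.227). Both were higher on all GFP positive arrays. Pde6d, a carrier of prenylated proteins, differed by 0.35 (limma adjusted p = 0.47). The Rap exchange factors Rapgef1, Rapgef2 and Rapgef6 differed by −0.27, 0.03 and 0.03 (limma adjusted p = 0.522, 0.976 and 0.961).

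The 20 members that were not tested lay near background. For 19 of them no array reached log2 4; their values ran from 2.00 to 3.66 and their differences from −0.33 to 0.08. The exception was Adcy5, the cyclase of striatal neurons, which read 4.86 on GFP negative replicate 2 and 2.90 to 3.36 on the other 5 arrays. Adcy10, the soluble bicarbonate-sensing cyclase, Adcy1, Adcy4 and Adcy7 were among the genes near background. Just inside the filter was Adcy8, with 3 arrays at or above log2 4. A gene near background on an array may still be expressed at a level these probes do not detect.

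Among the other genes of the pathway, G protein alpha subunits changed in both directions. All 7 listed subunits were tested, and their median difference was 0.12. Of these 1 rose and 1 fell, beside 2.35% and 2.11% of all tested genes. Gnao1, the abundant Go subunit of brain, read 9.35, 9.43 and 9.41 in GFP positive and 6.94, 7.47 and 8.39 in GFP negative cells. It was 3.47-fold higher without overlap (1.80, SE 0.35, limma adjusted p = 0.0347). Gnai1, an inhibitor of adenylyl cyclase, read 8.36, 8.83 and 8.60 against 9.53, 10.11 and 9.49 and was 2.16-fold lower (−1.11, SE 0.24, limma adjusted p = 0.0463). Both calls held only without GFP negative replicate 3 among the fits that leave out 1 array (limma adjusted p at most 0.137 for Gnao1 and 0.178 for Gnai1 in the others). Gnas, the stimulatory subunit, differed by 0.09 (limma adjusted p = 0.899).

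Few listed receptors and ligands were detected. Of 24 genes for Gs-coupled receptors and the peptide PACAP, 17 were on the array and 5 were tested, with 0 called and 0 at an unadjusted p under 0.05 in limma. Adcyap1r1, the receptor of PACAP, differed by 0.22 (limma adjusted p = 0.642) and Calcrl, the receptor of calcitonin gene-related peptide and adrenomedullin, by −0.49 (0.445). Of 8 genes for nitric oxide and natriuretic peptide supply only Furin, a protease that processes precursors, was tested (0.05, limma adjusted p = 0.917). Nos1, Nos2 and Nos3, the nitric oxide synthases, and Nppc lay under the filter. Nppa, the precursor of atrial natriuretic peptide, read 3.28, 3.03 and 2.98 against 3.66, 4.39 and 4.71 and was not tested.

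Downstream of PKA, anchoring proteins and inhibitors did not pass (13 tested of 18, median −0.17, 10 negative and 3 positive, 1 lower at an unadjusted p under 0.05 in limma). Akap12, a scaffold of PKA, differed by −0.31 (limma adjusted p = 0.431) and Pkig, a PKA inhibitor, by −0.63 (0.123). Of 10 tested CREB factors, coactivators and salt-inducible kinases 0 passed, with 0 at an unadjusted p under 0.05 in limma and a median of 0.03; the coactivator Crebbp differed by 0.06 (limma adjusted p = 0.915) and the kinase Sik3 by 0.03 (0.952). Crebbp and Sik3 turned negative without GFP negative replicate 3 (−0.06 each).

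Of 13 tested CREB target genes 1 rose, Bdnf, and 11 were positive, with a median of 0.21. Over all 10531 tested genes 2.35% rose and 5321 were positive. The median deviation of these targets from their gene means was −0.14, −0.01 and −0.32 on GFP negative replicates 1, 2 and 3. On the GFP positive arrays it was 0.12, 0.07 and 0.30. The lowest value was thus on GFP negative replicate 3, the array that stood apart. Bdnf, the brain-derived neurotrophic factor, read 7.99, 8.27 and 7.89 against 6.92, 6.14 and 6.81. It was 2.69-fold higher without overlap (1.43, SE 0.25, limma adjusted p = 0.027). The call held without GFP negative replicate 1 or 3 and was lost in the other 4 fits that leave out 1 array (limma adjusted p at most 0.121). Its probe set ends in _a_at and was left out in the fit without suffixed probe sets. Of 2 tested channels and exporters of cyclic nucleotides, Abcc4, a transporter that exports cAMP, was higher on all GFP positive arrays (0.59, limma adjusted p = 0.167) and Abcc5 overlapped (0.16, 0.715).

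Counts of called members depended on single arrays. With GFP negative replicate 3 left out, 9 members were higher (Adcy9, Gucy1a1, Gucy1b1, Npr2, Pde4d, Pde7b, Pde8a, Pde9a and Prkar1b) and 2 lower (Pde3b and Prkg2), beside 7.61% and 4.21% of all tested genes in that fit (11.8% together). Pde7b is counted there though it reached log2 4 on GFP positive arrays only, which fixes its direction. Without GFP positive replicate 1 or 3 no member passed, though by the unadjusted limma p at 0.05 each fit had 9 of 37 members higher and 3 lower, beside 7.22% and 6.67% of all tested genes without replicate 1 and 6.98% and 5.02% without replicate 3. Gucy1a1 alone passed without GFP positive replicate 2. An exact 2-sided permutation test over the 6 arrays cannot go below 0.1, which all 15 members without overlap reached.

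**Figure D5:**
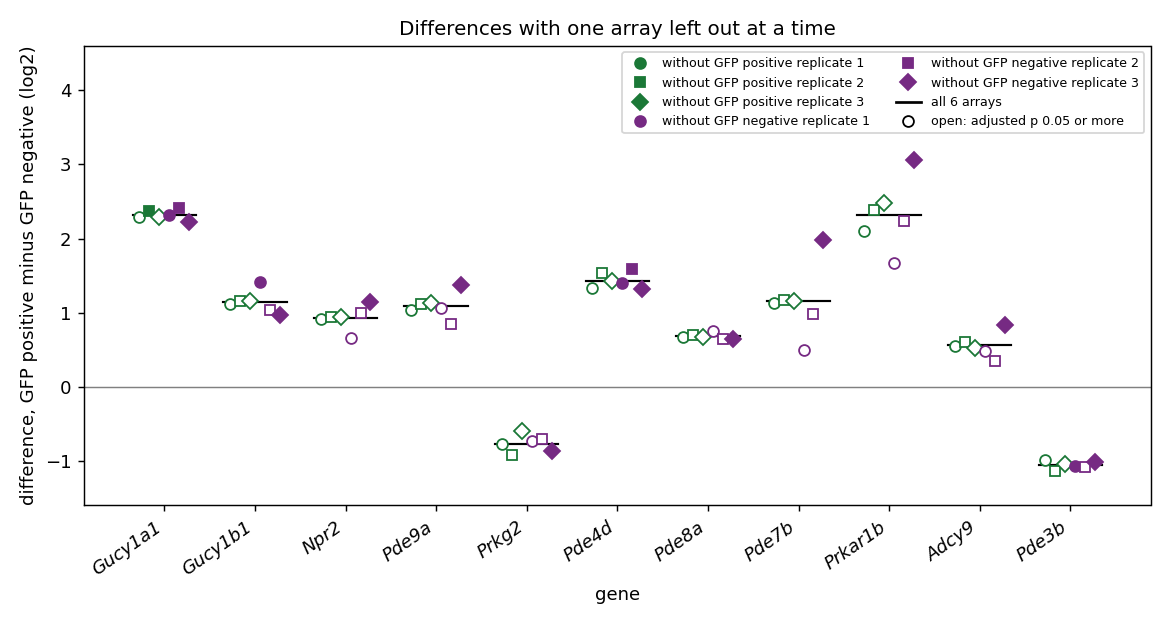
Difference between GFP positive and GFP negative cells (vertical axis, log2) for 11 genes with all 6 arrays (line) and with each array left out in turn (points, filled where the limma adjusted p was under 0.05). Gucy1a1 stays between 2.22 and 2.42, while Prkar1b runs from 1.67 to 3.05 and Pde7b reaches 1.98 without GFP negative replicate 3. Without that array Pde7b reached log2 4 on GFP positive arrays only, so its direction was fixed by the filter.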

How the data were processed

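The authors' deposited values are log2 signals. The submitters' processing notes name GCRMA, with no version given in the sources used here. It corrects background from probe sequence, brings arrays to one distribution and summarises probe sets, so folds near background depend on its background estimate. Extracted RNA was fragmented and biotin-labelled with a commercial kit, per the labels' protocols. All 45101 probe sets on 6 arrays were read without further normalization. Probe sets with exactly 1 annotated gene (34945) were kept, and the one with the highest mean over the 6 arrays stood for each of 18193 genes. Genes with at least 3 of 6 arrays at log2 4 or more, whatever the group, were tested (10531).

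The comparison used lmFit and eBayes of limma 3.58.1 (R 4.3.3), without covariates, over all these genes, with Benjamini-Hochberg adjustment and a threshold of 0.05. Differences are GFP positive minus GFP negative, with 95% limma intervals. The procedure was tested on simulated data. The number of arrays limits the precision. Members and lists were chosen with earlier results of these data known. Named genes are the called members, and in each role the member with the highest signal and the largest difference, with those at the edge of the filter. In pathway lists they are up to 2 called genes per direction or, with none called, the 2 of highest signal. Other members were described to complete their families after their values were seen.

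Deviations from the group means correlated at −0.25, 0.05 and −0.50 between arrays of replicate numbers 1, 2 and 3. With 3 arrays per group such correlations cannot decide whether the numbers pair the samples. Alternatives changed the filter, normalization, probe sets, eBayes settings, array weights, replicate block, minimum fold and arrays used.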

Additional observations from a re-analysis of the deposited data

How the results depend on the processing

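With 1 array left out, the members called ran from 0 to 9 higher and 0 to 2 lower. The counts over all tested genes (248 higher and 222 lower) ran from 1 to 801 and 0 to 443. Array weights, which gave GFP negative replicate 3 a weight of 0.152, called 10 members higher and 3 lower (all genes 1051 and 603). Taking for each gene the probe set of smallest p, 5 members were higher and 1 lower (all genes 221 and 174, or 2.1% and 1.65%). With no filter 193 of all genes were higher and 101 lower, and 3 members were higher (Gucy1a1, Pde4d and Pde8a) and 1 lower. A common median, and likewise trend and robust eBayes, called 3 higher (Gucy1b1 added) and 1 lower. Over all genes the common median called 3.07% higher and 1.98% lower, and trend and robust eBayes 2.34% and 2.04%. The replicate number as a block left 1 member higher (Gucy1a1) and 0 lower (all genes 19 and 8), with 10 higher and 4 lower members at an unadjusted p under 0.05 in limma (7.02% and 5.93% of all genes). Whether the numbers mark a shared source is not given. For replicate numbers 1 and 3 the same-numbered arrays did not correlate best with each other. For number 2 the match held only from the GFP positive side. GFP negative replicate 2 correlated at 0.05 with GFP positive replicate 2 and at 0.36 with GFP positive replicate 3. Quantile normalization and a filter at log2 6 called 2 members higher and 1 lower, as did the 2-fold minimum. So did leaving out probe sets that end in _s_at, _x_at or _a_at. The shares of all genes called higher and lower were 2.71% and 2.16% with quantile normalization. They were 2.29% and 1.87% with the filter at log2 6, and 2.3% and 2% without the suffixed probe sets. The cGMP arm median was 0.034 with no filter, where the genes near background enter, 0.66 with array weights and 0.469 to 0.974 with 1 array left out.

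Small differences changed sign. Adcy6 was 0.014 with a common median, 0.055 with array weights and 0.147 without GFP negative replicate 3. Rapgef2 was −0.216 with array weights, −0.024 without GFP positive replicate 3 and −0.253 without GFP negative replicate 3. Prkaca was −0.064 without GFP negative replicate 2 and Prkar2a −0.246 without GFP negative replicate 3. With all probe sets Prkg1 was 0.306, Abcc5 −0.421, Crebbp −0.155 and Sik3 −0.491. Crebbp and Sik3 were −0.043 and −0.039 with array weights and −0.064 and −0.056 without GFP negative replicate 3. The cause of these changes was not tested. With 1 array left out the differences reached −0.242 for Adcy6, 0.156 for Prkaca, 0.325 for Prkar2a, 0.171 for Rapgef2, 0.144 for Crebbp and 0.128 for Sik3 at the other end. Signal near background limits Prkar1b, Pde7b, Pde5a and Adcy8.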
